A study of Mus musculus with 3 samples.

Results

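The gene expression profile of untreated mouse embryonic fibroblast (MEF) cells was taken from 1 array and described by brightness rank, with no ratio to the arrays of treated cells. The members were the gene probes that the scanner software flagged as well above background, with no outlier flag. They were 45108 of the 55681 gene probes on the array, and they stood for 30901 of 36336 gene names. The cells were primary MEF of C57BL/6 mice, prepared from mid-gestation embryos without heads, legs and internal organs, and grown in medium with serum. The label gives no treatment, while the study's text describes the control as cells given DMSO, the solvent. The other arrays of the series hold MEF cultured with n-Butylidenephthalide (BP; spelled n-Butylenephthalide in the labels) at 10 µg/ml (BP10) or 40 µg/ml (BP40). Each condition had 1 array and no replicate, so no test between cultures was possible.

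Embryonic fibroblasts are connective tissue cells that spread on plastic, divide and secrete the matrix in which other cells sit: fibrillar collagens, the glycoproteins that link them, and the enzymes that fold, cross-link and cut them. A MEF culture is a mixed primary culture, because the whole trunk of the embryo is minced. It can therefore carry macrophages, muscle, vessel, nerve and skin cells in small numbers, and its fibroblasts keep the positional Hox code of the body region they came from.

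The percentile of a probe is the percent of the 45108 member probes that are no brighter, and a gene was given by its brightest probe above background. The rank orders probe brightness and not transcript number, since probes of different sequence bind with different strength. Among 364 member probes printed about 10 times on the array, the spots of a probe had a median SD of 0.13 (log2 processed signal), and their lowest and highest spots lay a median of 2.80 percentile points apart (90th percentile of probes 25.1). Different probes of 1 gene disagreed more. For the 8521 gene names with several member probes, the brightest and dimmest lay a median of 22.5 percentile points apart (quartiles 9.43 and 39.2). Small steps in rank between genes are therefore within the error of the method.

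The flag well above background was generous on this array. It was carried by 81.2% of the probes with an unflagged spot and by 85.2% of the gene names, against 67.4% of probes and 73.4% of gene names for BP10, and 68.3% and 74.4% for BP40. The untreated array was scanned in another session than both BP arrays, so scan and treatment cannot be told apart here. The negative control spots of the untreated array had a median signal of 7.54, and 8 of 308 carried the flag. Olfactory and vomeronasal receptors, which serve smell and are known from sensory neurons of the nose, were used as a second reference. Of the 1466 probes of these genes, 794 (54.2%) carried the flag on the untreated array, against 32.6% on BP10 and 34.7% on BP40. Their 95th percentile, a signal of 506, lay at percentile 55.0 of the member probes. This value is called the receptor level below. It was exceeded by 16184 gene names on the untreated array, 44.6% of those measured, against 47.5% on BP10 and 48.4% on BP40, each with its own receptor level. All gene names include those of long intergenic noncoding RNA (lincRNA) probes, of which 16.6% passed, against 52.3% of protein-coding probes. Shares over all gene names are therefore a low yardstick for lists of protein-coding genes.

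The signal of receptor probes moved with their base composition. The first 30 bases of the 3 brightest and 3 of the dimmest olfactory receptor probes are given here to show the range of base composition, each with the mm9 position of its 60-base probe as the scanner file gives it.
Olfr544 (chr7:109632628-109632687, minus strand): caacaggtcttcactgagaagccccagtcc
Olfr922 (chr9:38623966-38624025, plus strand): aggaacaaggaggtcaagattgccctgaga
Olfr1229 (chr2:89122461-89122520, minus strand): tatgcaaggcctcccactgccttttccttt
Olfr968 (chr9:39580034-39580093, minus strand): tatgacacagttttgcatttttgctacttt
Olfr99 (chr17:37416446-37416505, minus strand): tatagtctgagaaataaggatgttaagagt
Olfr993 (chr2:85254395-85254454, minus strand): ccaatatcaagattcttgttatctttgttg
The probe of Olfr544 had 55% G and C and stood at percentile 86.9. Olfr922, with 43.3% G and C, stood at 84.1, and Olfr1229, with 41.7%, at 81.8. The probes of Olfr968, Olfr99 and Olfr993 had 35% G and C each, and had the lowest value on the array, a signal of 7.54. Among receptor probes with at most 35% G and C, 118 of 427 (27.6%) carried the flag. The share was 49.7% over 35 to 40%, 73.8% over 40 to 45%, and 98.5% above 45%. Over all gene probes it went from 69.8% to 95.2% across the same classes. The share of flagged probes thus moved with base composition, and list members were counted both by the flag and by the receptor level. Only 68 of the 1466 receptor probes had more than 45% G and C, against 11229 of 55547 gene probes. The receptor level therefore does not correct for base composition.

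**Figure D1:**
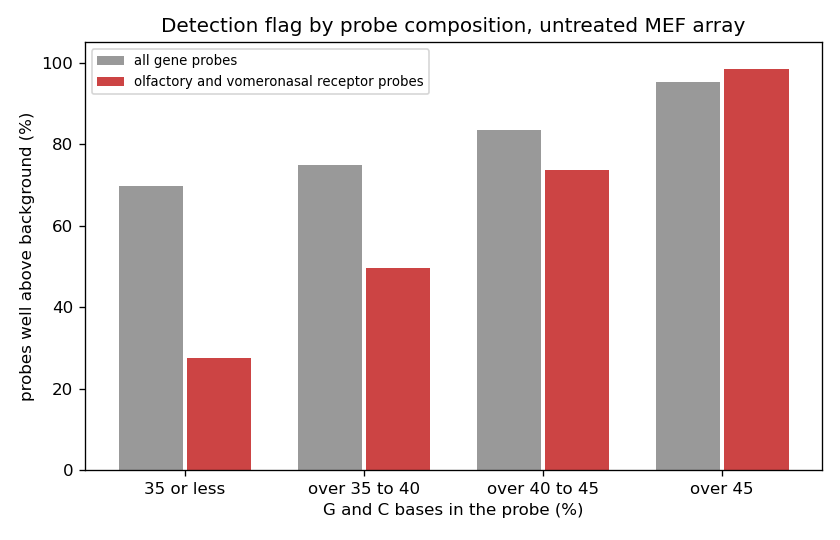
Percent of probes flagged well above background on the untreated array (vertical axis) in 4 classes of probe G and C content (horizontal axis), for all gene probes (grey) and for olfactory and vomeronasal receptor probes (red). The receptor bars go from 27.6% to 98.5%.

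A further set of probes was bright in spite of dim partner probes for the same gene. Each gene shown here has a stretch of letters that is also found in probes of other genes. A 30-base stretch of each is shown beside the mm9 position of the probe as filed (for Sox5 this covers only part of the probe), with a 14-base word in capitals that was the word of the probe held by the most other gene names.
Elk1 (chrX:20510521-20510580, minus strand): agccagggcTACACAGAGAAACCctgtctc
Slc10a1 (chr12:82056539-82056598, minus strand): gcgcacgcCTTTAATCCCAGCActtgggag
Kctd14 (chr7:104606896-104606955, plus strand): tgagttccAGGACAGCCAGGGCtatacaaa
Pbld1 (chr10:62540215-62540274, plus strand): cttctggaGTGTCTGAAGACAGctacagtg
Itgam (chr7:135261755-135261814, plus strand): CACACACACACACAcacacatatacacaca
Sox5 (chr6:143776945-143776971, minus strand): ggaggaagAGGAGGAGGAGGAGgaggagga
Trp63 (chr16:25871159-25871218, plus strand): gtacaggcAGCAGCAGCAGCAGcagcacca
The genes of this set were chosen after their values were seen. The first 3 stretches are the kind of letters known from B1, and the Pbld1 stretch from B2. Both are short interspersed elements that lie in very many mouse transcripts, mostly outside the coding part. The last 3 are simple repeats with a unit of 2 or 3 bases.

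Elk1, a transcription factor of the ETS family, stood at 99.8 by the probe shown and at 30.8 by its other probe. The probe of Slc10a1, the bile acid uptake carrier of hepatocytes, stood at 99.8, while the gene's other probe was not well above background. Kctd14 stood at 99.8 and, by its dimmest probe, at 12.3. Pbld1 stood at 99.9 and 32.0. The capital word of Pbld1 was present in 15 probes with a median percentile of 98.9, and its reverse complement in 2 probes with a median of 37.2. The word of Elk1 was present in 10 probes (median 98.2), and its reverse complement in 5 (median 79.4). The probes shown were chosen after their values were seen and count in the medians of the words as shown. The reverse complements rest on few probes. These values therefore cannot show which orientation is the brighter. Of the 100 brightest gene names, 43 had several probes, and in 7 of these the dimmest probe did not pass the receptor level. Those 7 also held LOC100044496 and Rps27a, for which no such stretch is shown.

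Probes with a simple repeat were bright as a class. Probes with a run of at least 14 bases of period 1 to 3 numbered 323, and their median percentile was 86.6 against 38.4 over all gene probes with an unflagged spot. Of them, 38.7% stood above percentile 90, against 8.12% of all probes. Probes without such a run, but with a 14-base word shared by at least 10 gene names, were less bright as a class. They numbered 545, with a median percentile of 54.7 (quartiles 10.2 and 83.4), and 98 of them stood above percentile 90. The probes of Elk1 and Pbld1 shown above belong to this class and do not stand for its usual brightness. The word of Itgam was present in 43 probes with a median percentile of 87.2, and its reverse complement in 88 probes with a median of 92.7. In 317 genes a probe with a simple repeat, or with a word shared by at least 10 gene names, could be set beside another probe of the same gene. The repeated probe was the brighter in 220 of the 317, and the median difference was 14.9 percentile points. Whether such a probe measured its named gene was not tested. Some genes that rest on one are marked as such below, but not all.

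**Figure D2:**
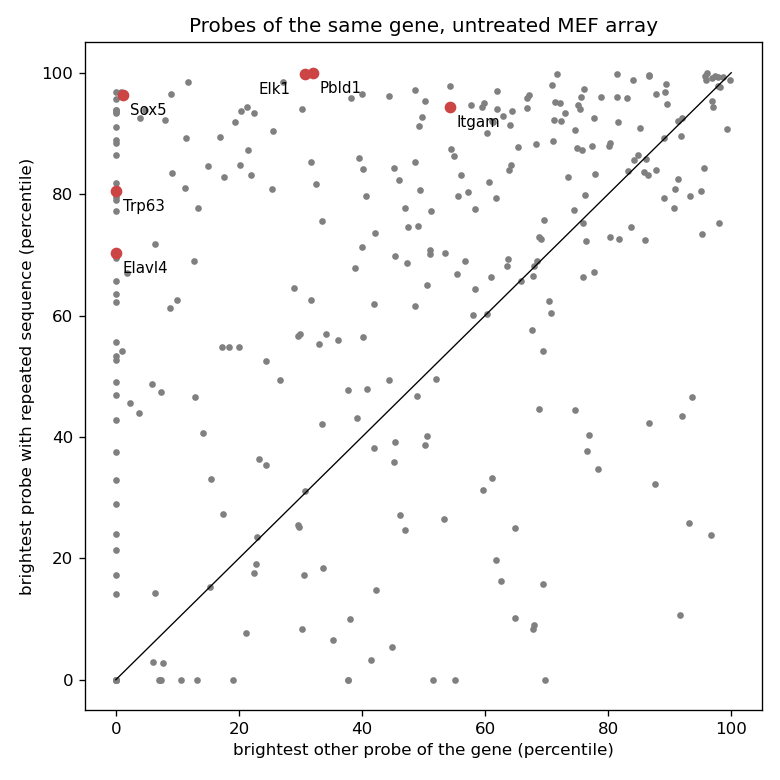
Percentile on the untreated array of the brightest probe with repeated sequence (vertical axis) against the brightest other probe of the same gene (horizontal axis), 1 point for each of 317 genes, with the line of equality. In 220 genes the point lies above the line, and the red points name 6 of them.

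The brightest genes made proteins of the cytoskeleton, the ribosome and the matrix. Beta-actin, Actb, was first (log2 processed signal 19.32) here and also in both BP profiles. The stalk protein of the large ribosomal subunit, Rplp0, was second on the untreated array (19.30), second on BP10 and twelfth on BP40. The mitochondrial oxidase subunit COX1 stood at rank 4. The translationally controlled tumour protein Tpt1 stood at rank 11 among gene names, collagen chain Col1a2 at 13, the collagen-binding glycoprotein Sparc at 18, the glycolytic enzyme Gapdh at 19, smooth muscle actin Acta2 at 20, the ferritin light chain Ftl1 at 25, and cytoplasmic actin Actg1 at 27. Ribosomal proteins Rpl41, Rpl10, Rpl32, Rps24, Rpl35, Rps16, Rps20 and Rps12 also stood among the first 30, 9 ribosomal proteins in all with Rplp0.

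The other names of the first 30 were copies or names that the RefSeq table does not hold. There were 6 pseudogenes (Gm11942, Rpl29-ps5, Gm10293, Gm7079, Tpt1-ps5 and Gm6440) and 6 names not in that table (LOC100044496, Gm10063, ENSMUST00000109588 and 3 probes with no gene name), beside 18 protein-coding genes. Over all probes, 88 of 1051 pseudogene probes (8.37%) stood above percentile 99, against 0.685% of protein-coding probes. Near-identical copies share hybridising sequence, so these values cannot be assigned to the copy rather than to its parent gene. LincRNA probes stood at the other end, with 4 of 16207 above percentile 99 and a median percentile of 22.8. The signal was concentrated in few probes. The 1000 brightest gave 55.1% of the summed signal of all members, and the first 100 gave 9.81%. Of the first 100 gene names, 67 were also among the first 100 on BP10 and 70 on BP40.

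**Figure D3:**
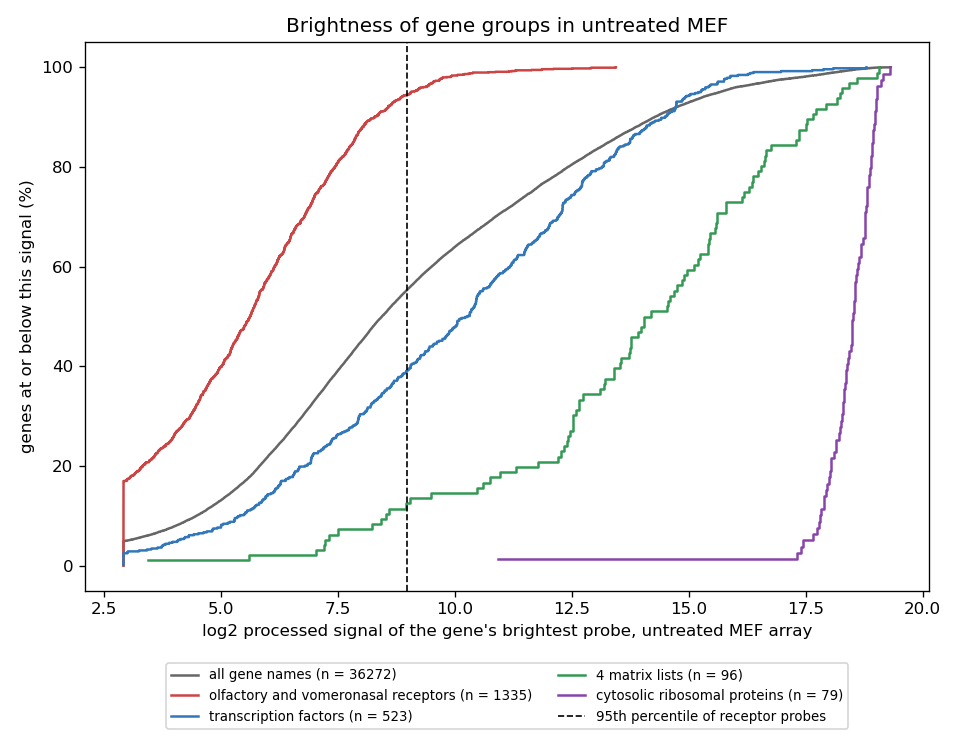
Percent of genes at or below each log2 processed signal (horizontal axis) on the untreated array for 5 gene groups, with the receptor level dashed. Ribosomal proteins (median 18.51) and matrix genes (14.12) lie to the right of all gene names (8.44), and receptors (5.62) to the left.

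All 79 cytosolic ribosomal proteins passed the receptor level, and 78 stood above percentile 90, against 44.6% and 10.9% of all gene names. Their median percentile was 99.6, and the dimmest was Rpl21 at 71.7. The translation factors (15 of 15 above percentile 90, median 98.1) included the elongation factors Eef1a1 at 99.5 and Eef2 at 98.5. The cytoskeleton list (21 of 21 above percentile 90, median 98.8) was led by Actb, Actg1 and the tubulin Tuba1b (99.9). Of 15 glycolysis genes, 11 stood above percentile 90, with aldolase Aldoa at 99.7 and lactate dehydrogenase Ldha at 99.6. The ER folding and secretion list had 14 of 15 above percentile 90. It held the chaperones Hspa5 (98.2) and Hsp90b1 (97.8) and the isomerase of proline-rich chains Fkbp10 (98.2).

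Sequence around the start of ribosomal protein genes was examined because this group stood together at the top. These genes are known to start in a pyrimidine tract. The letters CTTTC, read on the sense strand from 10 bases before to 15 after the RefSeq start (GRCm38.p6), were present in 15 of the 58 ribosomal protein genes with a promoter entry (25.9%) and in 3.10% of all 32851 promoter windows. The 30 bases around the start of 3 bright members are shown, from 15 bases before it, with the match in capitals.
Rpl35 (chr2:39005117-39005146, GRCm38.p6, minus strand): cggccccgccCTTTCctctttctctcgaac
Rps10 (chr17:27635230-27635259, GRCm38.p6, minus strand): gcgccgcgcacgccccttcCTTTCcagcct
Fau (chr19:6057932-6057961, GRCm38.p6, plus strand): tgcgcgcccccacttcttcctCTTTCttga
Rpl35 and Rps10 stood at 99.9 on the untreated array and Fau, whose product is processed to a small subunit protein, at 99.8. The match is a description of letters and not a site.

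Matrix genes formed the secretory side of the profile. Of the 24 collagen chains measured, 20 passed the receptor level and 10 stood above percentile 90, against 44.6% and 10.9% of all gene names. The chains of collagen I, the main fibre of skin and tendon, were the brightest (Col1a2 at rank 13 and Col1a1 at rank 141 among gene names). They were followed by Col3a1 at 98.1, Col5a1 at 97.4 and Col6a1 at 97.2. At the low end stood Col15a1 at 35.2 and the epithelial anchoring chain Col17a1 at 4.42, and Col4a3 was not well above background. Of 29 glycoproteins and elastic fibre genes, 27 passed the receptor level. Thrombospondin Thbs1 stood at 99.3, fibronectin Fn1 at 99.2, Fbln2 at 99.1, periostin Postn at 98.1 and fibrillin Fbn1 at 95.7, while elastin Eln stood at 60.2 and vitronectin Vtn at 27.3. Of 17 proteoglycans, 14 passed, with Hspg2 (94.8), Gpc1 (94.7), decorin Dcn (92.7) and Vcan (92.0) the brightest and Prelp (31.9) the dimmest.

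The enzymes that work on the matrix and their inhibitors were mostly bright. The list had 23 of 26 over the receptor level, against 44.6% of all gene names, and 16 above percentile 90, against 10.9%. With probes of repeated sequence left out, 22 of 25 passed the receptor level. Among procollagen processing and cross-linking genes, Pcolce stood at 99.5, the collagen chaperone Serpinh1 at 98.3, Loxl1 at 96.5, Bmp1 at 95.1 and Lox at 94.8. The inhibitors stood at 98.3 (Timp2), 98.1 (Timp1) and 96.7 (Timp3). The proteases Mmp2 and Mmp14 stood at 87.3 and 85.6, and the 3 members under the receptor level were the proteases Mmp3 (45.8), Mmp13 (30.7) and Mmp9 (30.1). On the BP10 and BP40 arrays the probe of Mmp3 stood at 3.35 and 0.00264. On each BP array 23 of the list passed as well.

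**Figure D4:**
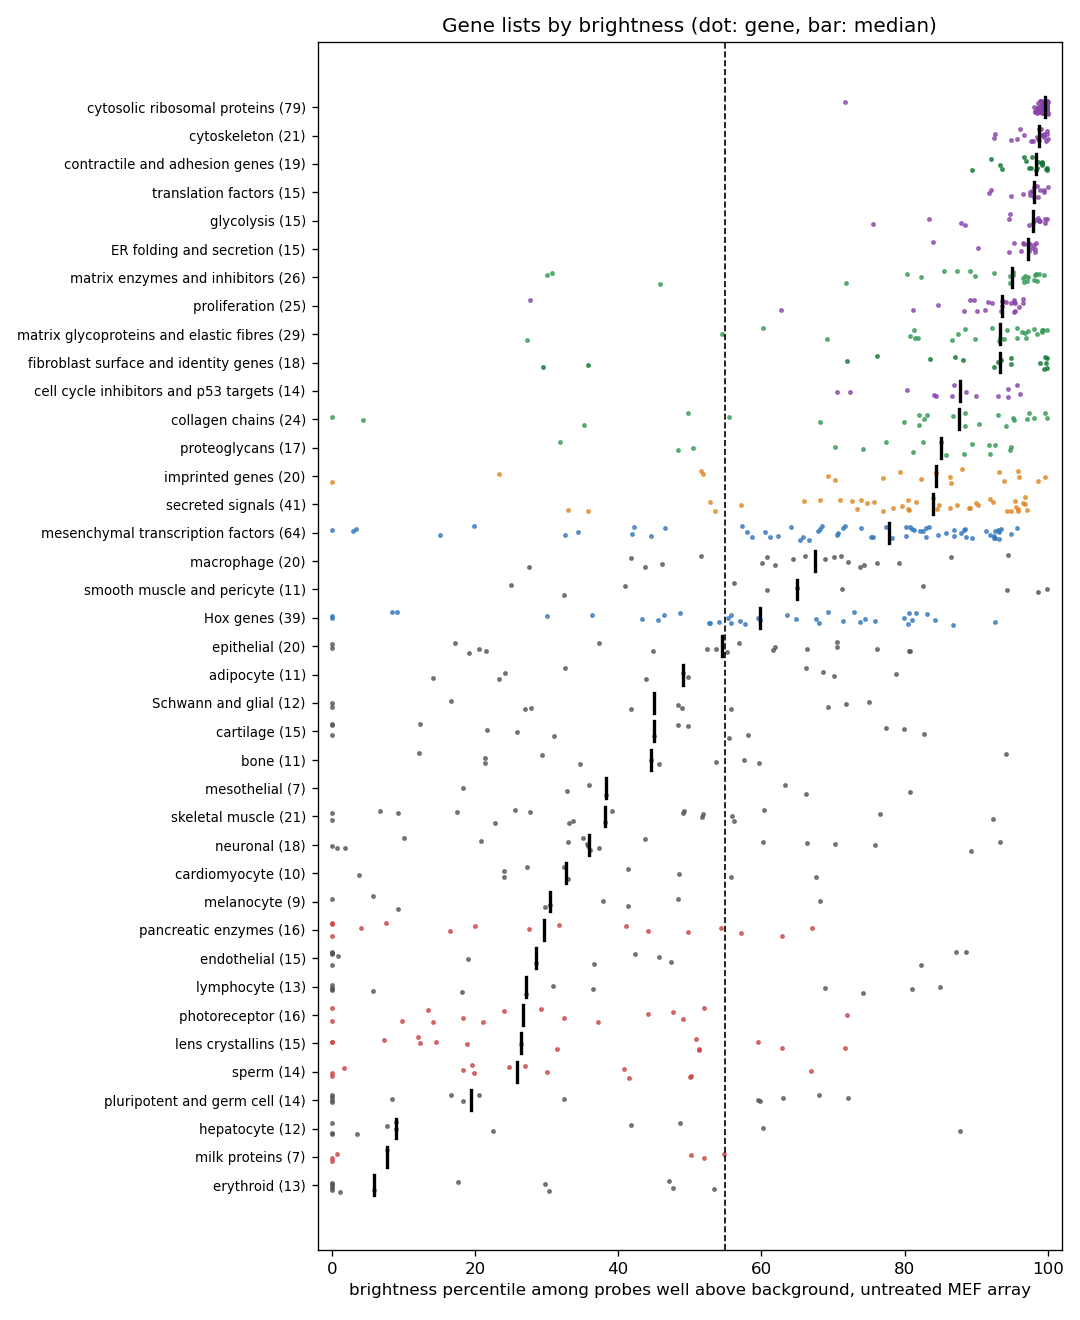
Percentile on the untreated array (horizontal axis) of each gene (dot) of 39 gene lists, with the list median as a bar, the number of genes measured in brackets and the receptor level dashed. The lists run from cytosolic ribosomal proteins (median 99.6) to erythroid genes (5.88).

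The label of the array, embryonic fibroblast, was set beside 18 surface and identity genes, a list chosen with earlier results of these data known. All 18 carried the flag, against 85.2% of all gene names, and 16 passed the receptor level, against 44.6%. The median was 93.3, against 48.7 over all gene names. Galectin Lgals1 and the intermediate filament Vim stood at 99.9, S100a6 at 99.7, annexin Anxa2 at 99.6, and Thy1, the surface protein often used to mark fibroblasts, at 99.5. The receptors for platelet-derived growth factor stood at 93.4 (Pdgfrb) and 87.1 (Pdgfra), and the serine protease Fap at 76.2. Mme (35.8) and Nt5e (29.5) were under the receptor level. On the BP10 and BP40 arrays 16 of the 18 passed as well. Because of how the list was chosen, these values describe the culture and are no independent check of the label.

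Genes of the contractile apparatus were among the brightest. All 19 contractile and adhesion genes passed the receptor level and 18 stood above percentile 90, against 44.6% and 10.9% of all gene names. Acta2, Tagln, Myl9 and Csrp1 stood between 99.3 and 99.96, the calponin Cnn1 at 98.6, and the dimmest, Actn1, at 89.4. The CArG box, known as the site of serum response factor, was counted by its letters. An exact match was found in 3 of the 18 genes with a promoter entry (16.7%), against 1.63% of all promoter windows. These were Myl9, Cnn2 and Vcl. Acta2 was not counted, but its window holds a near match, ccctatatgg. The match is a description of letters and not a site. Actg1 of the cytoskeleton list held an exact match too. Its 150 bases before the start (chr11:120348496-120348645, GRCm38.p6, minus strand) are shown with the box in capitals.
Actg1: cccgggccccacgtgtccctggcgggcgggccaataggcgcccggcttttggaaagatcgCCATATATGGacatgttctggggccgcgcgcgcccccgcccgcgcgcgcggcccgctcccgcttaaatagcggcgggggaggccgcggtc
The promoter windows of the brightest and of the undetected genes also differed in CG content, but not all bright lists followed this. Among the brightest 500 protein-coding gene names, the 407 with a promoter entry had a median of 21 CG dinucleotides in 300 bases. The 1944 entries for protein-coding names not above background had a median of 3, and those of 910 olfactory receptors a median of 1. Over all protein-coding names the median was 15. Ribosomal protein genes (22) and contractile and adhesion genes (19.5) lay above it, and the matrix lists together (12) lay under it.

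The culture expressed genes of dividing cells. Of 25 proliferation genes, 24 passed the receptor level and 18 stood above percentile 90, against 44.6% and 10.9% of all gene names. The replication helicase subunit Mcm6 and the survivin gene Birc5 stood at 96.5, the cyclin Ccnd1 at 96.0, Pcna at 95.5 and Mki67 at 95.2. Aurkb stood at 27.7. The cell cycle inhibitors and p53 targets were also present, with 14 of 14 over the receptor level: Ccng1 at 96.1, Mdm2 at 95.7, Cdkn1a at 94.5 and the senescence-linked locus Cdkn2a at rank 3937 among gene names. Of 41 secreted signals, 37 passed (36 of 40 without probes of repeated sequence). Activin subunit Inhba (97.1), the chemokine Ccl2 (96.8), the ligand Gas6 (96.8), Cxcl12 (96.5) and the macrophage growth factor Csf1 (95.6) were bright, and Fgf2 (35.8) and Lif (33.0) were under the receptor level. Among imprinted genes, H19 stood at 99.6 by the brightest of 7 probes and at 32.4 by the dimmest, and Phlda2 was not well above background.

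Transcription factors lay lower than structural genes. Of 523 measured, 477 carried the flag (91.2%, against 85.2% of all gene names) and 318 passed the receptor level (60.8%, against 44.6%). Among protein-coding probes 86.6% carried the flag and 52.3% passed. The 63 above percentile 90 were a share close to the 10.9% of all gene names, and the median percentile was 66.6, against 48.7. The first by rank, Elk1, rested on the repeat probe described above, and Sox5, which came ninth at 96.3, stood at 1.21 by its other probe. The others of the first 20 included regulators of the stress and secretory response, Atf4 (rank 384 among gene names), Atf5 (98.5) and Xbp1 (96.7). They included the chromatin proteins Hmga1 (98.8), Hmgb1 (95.9) and Hmga2 (95.6), and the growth regulators Yap1 (95.8), Ctnnb1 (95.6) and Plagl1 (96.0). Ybx1 (97.7), Fhl2 (96.8), Sub1 (96.6), Csrp2 (95.6), Cebpd (95.2), Zfp36l2 (95.2), Rela (95.2) and Foxp1 (94.9) also stood there. Sub1 had a further probe at 5.22.

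Of 64 factors that shape mesenchyme, 53 passed the receptor level and 12 stood above percentile 90, against 44.6% and 10.9% of all gene names. Their median percentile was 77.9, against 48.7. Tead1 (93.5), Twist2 (93.2), Prrx1 (93.2), Prrx2 (93.1), Snai1 (92.5) and Snai2 (91.4), which act in limb, skin and migrating mesenchyme, followed Yap1 and Foxp1. The bone factor Runx2 (44.5), Dlx5 (15.1) and the visceral factor Tcf21 (2.99) lay under the receptor level, and Hand1 was not well above background. Of 39 Hox genes, 26 passed (66.7%), and 1 stood above percentile 90. Hoxc6 (92.6), Hoxa7 (86.8), Hoxc9 (84.2) and Hoxb9 (83.1), which mark the trunk, were the brightest, and Hoxd12 and Hoxb1 were not well above background. Paralogs 1 to 9 had 19 of 27 over the receptor level (median 68.1), and paralogs 10 to 13 had 7 of 12 (median 55.6). By cluster, 8 of 11 Hoxa, 8 of 10 Hoxb, 7 of 9 Hoxc and 3 of 9 Hoxd genes passed.

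Markers of other cell types were read against the share of all gene names over the receptor level, 44.6%. That share is lowered by lincRNA names, and by probe 52.3% of protein-coding probes passed. In a bulk culture, fewer cells of a type and less RNA per cell cannot be told apart. Macrophage genes and the smooth muscle and pericyte list lay above that share. Of 20 macrophage genes, 15 passed the receptor level on the untreated array, 17 on BP10 and 16 on BP40. The receptor of the macrophage growth factor, Csf1r, stood at 86.5, the signalling adaptors Fcer1g and Tyrobp at 79.3 and 76.1, and complement C1qc, C1qb and C1qa at 73.8, 71.1 and 68.8. Itgam stood at 94.4 by the repeat probe shown above and at 54.2 and 49.5 by its other probes, which are under the receptor level. With probes of repeated sequence left out, 14 of 20 macrophage genes passed (70%) and 44.1% of all gene names. Ptprc (46.1), Fcgr3 (43.8), Fcgr1 (41.9) and Cd68 (27.5) were under the receptor level. Of the smooth muscle and pericyte list, 8 of 11 passed (72.7%), with or without such probes, but Acta2 and Cnn1 are shared with the contractile list. Rgs5 (41.0), Abcc9 (32.4) and Kcnj8 (25.1), pericyte markers, were under it.

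Several lists were near or under the background share. Epithelial genes passed in 10 of 20 cases (9 without probes of repeated sequence), led by Krt19 (80.8) and by Trp63 (80.6), whose second probe was not well above background, and the adhesion genes Cdh1 and Epcam of epithelia were not well above background either. Skeletal muscle genes passed in 5 of 21 cases. Acta1 stood at 92.3, Myl4 at 76.5 and Mymk at 60.3, while Myod1 stood at 49.1, with a repeated word in its probe, Myog at 33.1, and Myf5 and Ttn were not well above background. Of the neuronal list 6 of 18 passed (4 of 17 without probes of repeated sequence), with Snap25 at 93.4 by a probe that starts with the same simple repeat as that of Itgam, and the tubulin Tubb3 at 89.2. Bone genes passed in 3 of 11 cases, with osteopontin Spp1 at 94.2 and the bone factor Sp7 at 59.6. Cartilage genes passed in 5 of 15 cases. Col11a1 (82.7), Col2a1 (79.9) and Sox9 (77.4) stood over the receptor level, and the cartilage matrix genes Matn1, Col9a3 and Cnmd were not well above background.

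Vessel and blood markers were mostly dim. Of 15 endothelial genes 3 passed the receptor level, Kdr (88.6), Flt1 (87.1) and Egfl7 (82.3). The cadherin Cdh5, Tie1, Erg, Esam and Sox18 were not well above background, and Kdr stood at 44.8 by its other probe. Of 13 lymphocyte genes, 4 passed. Cd4 stood at 85.0 (46.1 by its other probe), Cd3e at 81.1, Nkg7 at 74.2 and Lck at 68.9, while Cd3d, Cd3g, Ms4a1 and Rag1 were not well above background. The subunits of the T cell receptor complex thus went apart. None of the 13 erythroid genes passed on the untreated array, with 0 on BP10 and 1 on BP40. The embryonic globin Hbb-bh1 stood at 53.4 and Hba-a1 at 30.3.

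**Figure D5:**
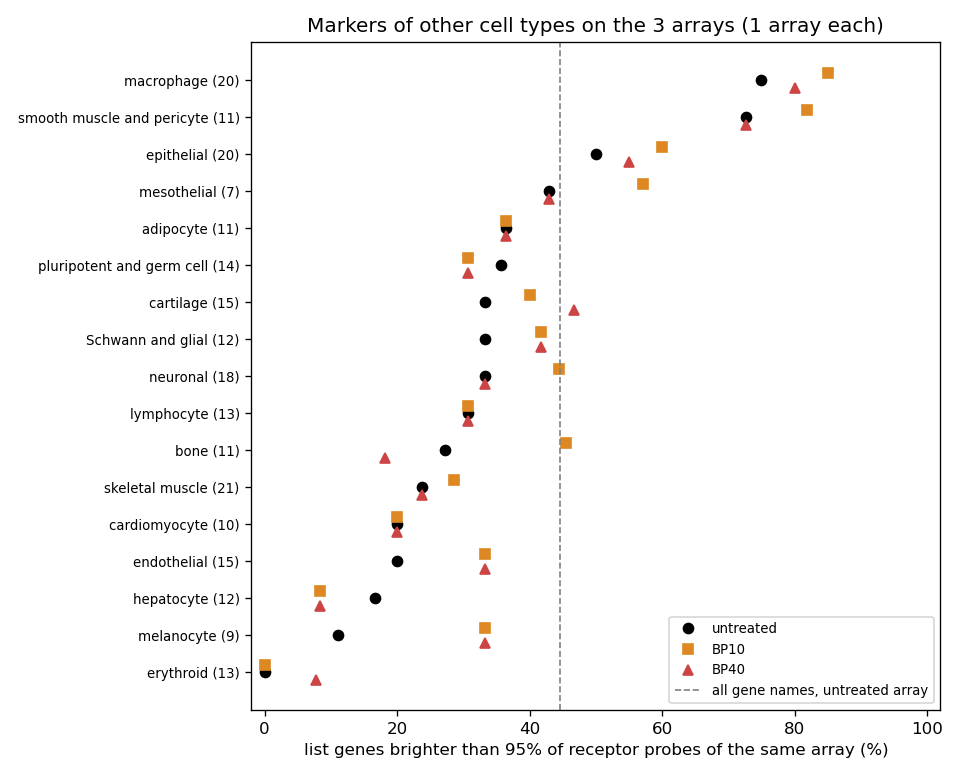
Percent of the genes of 17 cell type lists that were over the receptor level (horizontal axis) on the untreated (circle), BP10 (square) and BP40 (triangle) array, 1 array each, with the number of genes measured in brackets. Macrophage genes lie on the right of the dashed line, the 44.6% of all gene names on the untreated array, and erythroid genes on the far left.

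Genes of early embryonic and liver cells were spread over the rank. Pou5f1, the pluripotency factor also called Oct4, stood at 16.6, and Sox2, Zfp42, Tfcp2l1 and the germ cell gene Dazl were not well above background. Utf1 (72.1), Lin28a (68.0), Nanog (63.0), Esrrb (59.8) and Tdgf1 (59.5) passed the receptor level, which made 5 of 14 (35.7%, against 44.6% of all gene names). Nanog had another probe at 14.4, and Tdgf1 one that was not well above background. Of 12 hepatocyte genes 2 passed, Apoa2 (87.7) and Fga (60.3), while albumin Alb, Ttr and F2 did not carry the flag. With BP, 1 of the 12 passed at either dose. Genes of the Y chromosome were present. Eif2s3y stood at 82.7 and Ddx3y at 81.8, while Uty stood at 31.1 and Kdm5d was not well above background. Xist, transcribed from the inactive X chromosome, stood at 54.1, just under the receptor level of 55.0. The number and sex of the embryos are not given in the sources used here.

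At the edge of the flag the signals of members and others overlapped. The 3 dimmest members were probes of F13b (20.3), Ifng (23.7) and Olfr148 (26.4). The 3 brightest probes that did not carry the flag had signals of 37.8 each, with Mmp8 the only one among them that has a gene symbol in common use.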

How the data were processed

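RNA of untreated, BP10 and BP40 MEF, 1 sample each, was labelled with Cy3 and hybridised to Agilent Mouse G3 8x60K arrays on 1 slide. The authors deposited the scanner output of Feature Extraction 10.5.1.1, which gives an intensity per spot with background and spatial trend removed and without any scaling from array to array. A value table of the series repeats it (100% of values alike to within 0.0001 of their size; unmapped columns 0). No normalization is named in the study's methods.

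Control spots and outlier spots were left out, no spot was saturated (0 on each array), and spots of a probe were averaged as log2 intensity. A probe was a member if a share of at least 0.5 of its spots carried the flag well above background. Probes were named by RefSeq accession (26480), symbol (2970) or synonym (715), otherwise as in the scanner file (25516). Probe coordinates are mm9, as in the files, and promoters are RefSeq, GRCm38.p6. No mm9 annotation was used, so exon and UTR positions of probes are not given. With 1 array per condition there is no p-value. The rank step was tested on the untreated array with noise added and 200 probes raised by known amounts. It recovered 200 of 200 raised probes among 55547, which checks the computation and not how probes bind. Number of arrays limits the precision.

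Named were the 30 brightest gene names, the 20 brightest transcription factors, members of the lists, of long lists the brightest and dimmest, and 3 probes on each side of the flag's edge; some of these genes are not reported here. Genes outside this rule are said to be chosen after their values were seen. The lists and members were chosen with earlier results of these data known. Alternatives covered signal column, detection flag, outlier spots, gene summary, denominator and data source. Python 3.11.15, numpy 2.4.6, pandas 2.3.3, R 4.3.3 and limma 3.58.1 were used.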

Additional observations from a re-analysis of the deposited data

How the results depend on the processing

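No paired analysis was possible because no group holds more than 1 array. The share of probes well above background was 93.9% with the flag for positive and significant spots, 93.1% above the 95th percentile of the negative control spots and 36.6% above that of the receptor probes. For gene names these shares were 95.1%, 94.5% and 44.6%, and 80.6% where more than a 0.5 share of a gene's probes had to pass. Of the 100 brightest gene names, 100 stayed there under the 3 other signal columns, the series table and with outlier spots kept, and 69 with the median of all probes. The series table repeats the scanner values, so it could move nothing here or in the lists below. The other signal columns were read from the same spots. Without probes of repeated sequence, an alternative chosen after seeing the data, 92 of the 100 stayed. This alternative took out only simple repeats and words shared by at least 10 gene names. The words of Slc10a1 and Kctd14 shown above were held by 6 and 7 names, so those probes stayed in. For 45 lists under 12 alternatives, the median percentile moved by less than 22.5 points, the usual spread between probes of a gene, in 537 of 540 cases, and the count of genes above background by less than 1.5 times in 527. With the median of all probes, 3 milk proteins were above background in place of 5. The other exceptions came from the BP arrays, a comparison also chosen after seeing the data. The median was 24.9 for adipocyte and 1.04 for photoreceptor genes on BP10, and 5.44 for pancreatic enzymes on BP40. On the untreated array these medians were 49.0, 26.7 and 29.6. The median over all gene names was 48.7 on the untreated array, 37.3 on BP10 and 38.4 on BP40. Genes above background on BP10 were 4 erythroid, 5 melanocyte, 5 hepatocyte, 3 milk protein, 8 photoreceptor, 366 olfactory and 97 vomeronasal genes. On BP40 they were 4 erythroid, 6 pluripotent and germ cell, 3 milk protein, 9 photoreceptor and 394 olfactory genes. The untreated array had 8 erythroid, 8 melanocyte, 9 hepatocyte and 10 pluripotent and germ cell genes above background. It also had 5 milk protein, 14 photoreceptor, 606 olfactory and 146 vomeronasal genes. Over all gene names the share above background was also lower on the BP arrays, 73.4% on BP10 and 74.4% on BP40 against 85.2%. The cause was not tested. Signal over background limits what can be said of the lower part of the rank, and the brightness of 1 culture has no error between cultures.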

Other observations

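Genes known from tissues absent from a fibroblast culture were set beside all gene names, of which 85.2% carried the flag and 44.6% passed the receptor level. Of 15 lens crystallins 13 carried the flag (86.7%) and 3 passed the receptor level (Cryba4 at percentile 71.7, Cryaa at 62.9 and Crygf at 59.5). Of 16 pancreatic enzymes 13 carried the flag and 3 passed. Of 16 photoreceptor genes 14 carried the flag (87.5%) and 1, Rom1, passed at 72.0. Of 14 sperm genes 12 carried the flag (85.7%) and 1, the protamine Prm1, passed at 66.9. No milk protein of 7 passed, and casein Csn2 was not well above background. Among defensins 39 of 65 carried the flag and 2 passed. Of 54 keratin-associated proteins 38 carried the flag and 15 passed the receptor level (27.8%), with 14 and 15 over it on the BP10 and BP40 arrays.

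The 8 probes placed on the mitochondrial chromosome all passed the receptor level, with a median percentile of 97.7. The brightest vomeronasal receptor, Vmn1r87, stood at percentile 84.2.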
